A study of Mus musculus with 10 samples.

Results

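The 8 genes described here encode the core of activator protein 1 (AP-1) in cardiomyocytes after myocardial infarction (MI). They are the FOS family (Fos, Fosb, Fosl1 and Fosl2), the JUN family (Jun, Junb and Jund) and Atf3. They were chosen by symbol, with their fold changes between the same 2 groups already known, from the 51789 genes of the count table, and all 8 were among the 15232 genes with enough counts to be compared. For this reason their differences between groups are given as a description, with standard errors and without a test of their own.

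Cardiomyocytes of 10 mice were isolated on day 4 after MI and gave 1 RNA library each. The 5 TgGRK5-MI mice carried a transgene for G protein-coupled receptor kinase 5 (GRK5) in cardiomyocytes, and the 5 NLC-MI mice were non-transgenic littermate controls. Both groups underwent MI by permanent ligation of the left coronary artery, and no sham-operated heart was among the libraries, so the values show the groups beside each other after MI and not the response to MI. The labels give neither age nor sex for single mice, and the study describes using adult mice of both sexes.

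AP-1 is a pair of basic leucine zipper (bZIP) proteins bound to DNA, usually one from the FOS family and one from the JUN family, and JUN proteins can also pair with each other. Fos, Fosb, Jun, Junb and Atf3 are immediate early genes, whose transcription starts within minutes of a growth factor, stretch or stress signal through kinases of the mitogen-activated protein kinase (MAPK) cascades and needs no new protein. Jund is made more steadily in most cells, and in the heart AP-1 genes are known to respond to pressure load, ischemia and the handling of tissue during cell isolation.

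The sequences before the start sites of Fos, Jun and Atf3 are shown because each holds letters related to the AP-1 and cAMP response elements, and because Fos and Jun varied together between libraries. Sequences came from RefSeq on GRCm38.p6, which gave a promoter for 7 of the 8 genes. The 250 bases before each RefSeq start are written 5′ to 3′ on the strand of the gene, and capitals mark matches to TGACNTCA or TGACGT on either strand.
Fos: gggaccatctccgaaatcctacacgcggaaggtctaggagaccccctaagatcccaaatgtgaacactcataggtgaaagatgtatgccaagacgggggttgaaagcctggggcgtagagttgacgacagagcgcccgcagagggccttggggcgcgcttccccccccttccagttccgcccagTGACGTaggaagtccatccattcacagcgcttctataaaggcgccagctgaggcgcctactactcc
Jun: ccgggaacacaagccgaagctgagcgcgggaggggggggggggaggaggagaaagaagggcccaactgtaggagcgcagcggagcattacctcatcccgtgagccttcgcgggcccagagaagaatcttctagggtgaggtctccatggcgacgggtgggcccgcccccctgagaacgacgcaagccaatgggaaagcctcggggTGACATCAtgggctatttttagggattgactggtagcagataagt
Atf3: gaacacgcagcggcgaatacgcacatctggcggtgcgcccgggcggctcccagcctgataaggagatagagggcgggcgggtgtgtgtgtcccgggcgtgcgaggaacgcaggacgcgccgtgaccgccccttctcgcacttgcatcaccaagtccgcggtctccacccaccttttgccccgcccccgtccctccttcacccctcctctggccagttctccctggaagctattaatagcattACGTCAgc

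The Fos sequence is chr12:85473640-85473889 on the plus strand, directly before the annotated first base of the gene and outside any annotated exon. It held TGACGT at bases -66 to -61 and TATAAA at bases -33 to -28, counted back from -1 at the last base before the start. The Jun sequence is chr4:95052223-95052472 on the minus strand, also outside any annotated exon, and held TGACATCA at bases -45 to -38, which matches TGACNTCA. The Atf3 sequence is chr1:191183334-191183583 on the minus strand and held ACGTCA, which is TGACGT on the opposite strand, at bases -8 to -3. It lies inside the GENCODE gene, whose first base is 34706 bases further upstream, and 7 of its bases fall in an annotated exon.

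Of 27025 promoters of the same length, 6.56% held TGACGT, 7.59% held TGACNTCA, 1.62% held the full TGACGTCA and 6.87% held TGANTCA. The shares were 13.0% for TATAAA and 1.40% for a CArG box, the element bound by serum response factor. Both strands were searched, and every TGACGTCA is also counted under TGACNTCA and TGACGT. In the windows of Fosb, Fosl2, Junb and Jund none of these letters was found, which says nothing of elements outside the windows. All 250 bases of the Fosl2 window fall in an annotated Fosl2 exon, because its RefSeq start lies 671 bases inside the GENCODE gene. The Jund window ends before a RefSeq start at chr8:70697739, upstream of the GENCODE start at chr8:70698949.

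Library totals ran from 7968779 counts in NLC-MI replicate 3 to 23381527 in NLC-MI replicate 2. Levels are given in CPM, counts scaled to a common library total, with the TMM factors of edgeR, and a gene with 3 counts would lie between 0.128 and 0.376 CPM before that scaling. The labels were checked with Grk5, whose mean rose from 60.4 ± 9.50 CPM in the controls to 1222 ± 472 CPM in the transgenic libraries (SD, n = 5 per group), with adjusted p = 0.000245 in edgeR's test. Markers of cardiomyocytes summed to between 50616 and 129191 CPM in the controls and between 53525 and 103136 CPM in the transgenic libraries. Markers of fibroblasts summed to between 4031 and 24098 CPM in the controls and between 4198 and 24766 CPM in the transgenic libraries, and markers of other cell types were present too. In such bulk RNA, fewer cells of a type and less RNA per cell cannot be told apart.

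Fos, the FOS protein most often used as a marker of recent cell activation, was the gene with the lowest ratio between groups among the 8. In NLC-MI replicates 1 to 5 it was at 144, 114, 322, 86.0 and 288 CPM. In TgGRK5-MI replicates 1 to 5 it was at 60.3, 82.8, 84.8, 73.7 and 74.6 CPM. The TgGRK5-MI libraries lay close together and all below the lowest NLC-MI library, whereas NLC-MI replicates 3 and 5 stood well above the other controls. The mean was 191 ± 107 CPM in the controls and 75.3 ± 9.67 CPM in the transgenic libraries (SD, n = 5 per group), so that the TgGRK5-MI mean was 39.5% of the NLC-MI mean. The log2 fold change was -1.34 (standard error 0.33). The margin between the groups was narrow, and with scaling by library size alone they overlapped, with the lowest control at 87.0 CPM and the highest TgGRK5-MI library at 88.7 CPM.

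**Figure D1:**
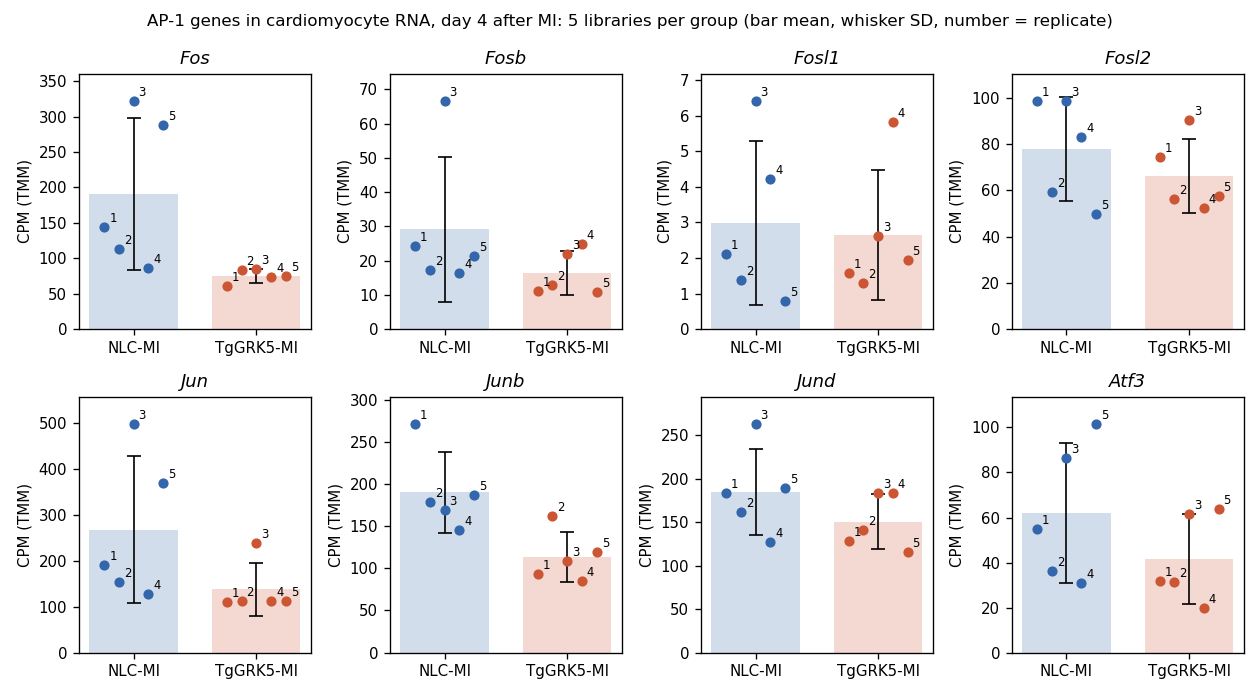
Levels of the 8 AP-1 genes in CPM (linear axis from 0) for NLC-MI (blue) and TgGRK5-MI (red). Bars are means, whiskers are SDs, points are libraries and the numbers beside them are replicate numbers; the 5 Fos values of TgGRK5-MI lie between 60.3 and 84.8 CPM, while those of NLC-MI spread from 86.0 to 322 CPM.

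Fosb, a close relative of Fos, was at 24.3, 17.3, 66.6, 16.3 and 21.2 CPM in NLC-MI replicates 1 to 5. It was at 11.2, 13.0, 21.9, 24.8 and 11.0 CPM in TgGRK5-MI replicates 1 to 5. NLC-MI replicate 3 alone was far above the rest, and TgGRK5-MI replicate 4 was above the other 4 control libraries, so the groups overlapped. The log2 fold change was -0.83 (standard error 0.41), and it was -0.28 without NLC-MI replicate 3.

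Fosl2, which encodes the FOS-related antigen FRA2, was at 98.4, 59.3, 98.5, 83.0 and 49.6 CPM in NLC-MI replicates 1 to 5. It was at 74.5, 56.0, 90.4, 52.2 and 57.4 CPM in TgGRK5-MI replicates 1 to 5. The lowest value of all belonged to a control, NLC-MI replicate 5, which was among the highest libraries for Fos. The log2 fold change was -0.23 (standard error 0.23), and the TgGRK5-MI mean was 85.0% of the NLC-MI mean.

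Fosl1, which encodes FRA1, was the least abundant of the 8, with between 12 and 90 counts in a library. Its level ran from 0.785 to 6.41 CPM in the controls and from 1.31 to 5.82 CPM in TgGRK5-MI, and the log2 fold change was -0.17 (standard error 0.56). The groups covered nearly the same range. Its value is uncertain, because 1163 of its 2033 exon bases (57.2%) are shared with Ccdc85b, which held 737% of the counts of Fosl1, and the library kit does not mark the strand of the RNA.

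Jun, the main DNA-binding partner of FOS proteins, was at 191, 154, 497, 127 and 370 CPM in NLC-MI replicates 1 to 5. It was at 110, 112, 239, 112 and 113 CPM in TgGRK5-MI replicates 1 to 5. As with Fos, NLC-MI replicates 3 and 5 were the highest of the controls, and 4 of the 5 TgGRK5-MI libraries lay together below the lowest control. TgGRK5-MI replicate 3 was above 3 of the controls. The mean was 268 ± 159 CPM in the controls and 137 ± 57.1 CPM in the transgenic libraries (SD, n = 5 per group), with a log2 fold change of -0.96 (standard error 0.38).

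Junb, a JUN protein that often acts with weaker or opposite effect on JUN targets, was at 271, 178, 169, 145 and 187 CPM in NLC-MI replicates 1 to 5. It was at 92.9, 162, 108, 85.0 and 119 CPM in TgGRK5-MI replicates 1 to 5. Here the highest control was replicate 1, replicates 3 and 5 were close to the other controls, and 4 of the 5 TgGRK5-MI libraries were below the lowest control. The mean was 190 ± 47.8 CPM in the controls and 113 ± 30.1 CPM in the transgenic libraries (SD, n = 5 per group), with a log2 fold change of -0.75 (standard error 0.21). Junb shares 173 exon bases, 7.52% of its exons, with Prdx2, a more abundant gene whose log2 fold change was 0.10 (standard error 0.28).

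Jund was at 183, 161, 262, 128 and 189 CPM in NLC-MI replicates 1 to 5. It was at 129, 141, 184, 183 and 116 CPM in TgGRK5-MI replicates 1 to 5. Only 1 TgGRK5-MI library was below the lowest control, and the log2 fold change of -0.29 (standard error 0.21) was small beside that of Jun.

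Atf3, a stress-induced bZIP protein that pairs with JUN and often represses its targets, was at 54.9, 36.2, 86.4, 30.8 and 101 CPM in NLC-MI replicates 1 to 5. It was at 31.6, 31.2, 61.5, 19.7 and 63.8 CPM in TgGRK5-MI replicates 1 to 5. Controls 3 and 5 were again the highest, and the groups overlapped over most of their range. The log2 fold change was -0.57 (standard error 0.39).

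All 8 log2 fold changes were below 0, as were 49.8% of those of all genes tested, and the median over all genes was 0.0013. With edgeR's quasi-likelihood test and Benjamini-Hochberg adjustment, 0 of the 8 had an adjusted p under 0.10, and 0.0788% of all genes did. At an unadjusted p under 0.05, Fos, Jun and Junb (3 of 8) were lower in TgGRK5-MI, and 2.08% of all genes were. With DESeq2, Fos (1 of 8) had an adjusted p under 0.10, and 0.397% of all genes did. All transgenic libraries lay below all controls for 1 of the 8, Fos, and for 0.42% of all genes. Since the genes were chosen with this comparison in view, nothing is read from these counts.

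NLC-MI replicate 3 had the highest level of all 10 libraries for 6 of the 8 genes, and replicate 5 was among the highest pair for 5 of the 8. The shares of all genes for which this held are not given here, so nothing is read from these counts. For Fosl2, replicate 3 was at 98.5 CPM and NLC-MI replicate 1 at 98.4 CPM. With scaling by library size alone they were at 94.5 and 109 CPM, so this order depends on the scaling. Replicate 3 was the smallest library, and replicate 5 had the lowest TMM factor (0.872) and the highest sum of cardiomyocyte markers. Without both, the 3 remaining controls had Fos at 114 ± 29.0 CPM (SD, n = 3), and the log2 fold change of Fos was -0.61 (standard error 0.19). That of Jun was -0.21 (standard error 0.28), that of Fosb -0.26 (standard error 0.30) and that of Atf3 0.02 (standard error 0.37). That of Junb was -0.81 (standard error 0.25). With these 8 libraries 2 of the 8 genes, Fos and Junb, had an unadjusted p under 0.05 and were lower, against 3.18% of all genes.

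**Figure D2:**
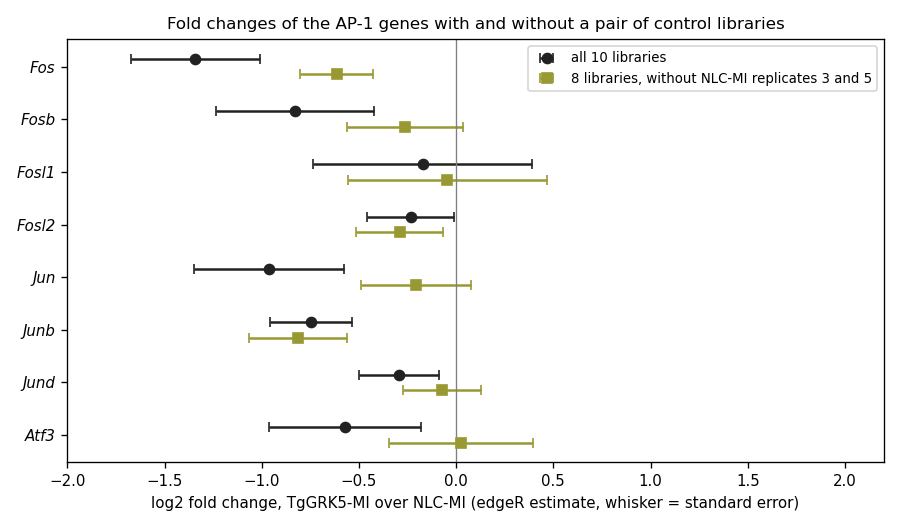
Log2 fold change of each AP-1 gene, TgGRK5-MI over NLC-MI, with its standard error as whisker. Black points use all 10 libraries and yellow squares the 8 libraries without NLC-MI replicates 3 and 5; Jun moves from -0.96 to -0.21 while Junb is at -0.75 and -0.81.

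With log2 library size as a covariate, the log2 fold changes were -1.29 for Fos (standard error 0.28), -0.91 for Jun (standard error 0.29) and -0.73 for Junb (standard error 0.20). That of Fosb was -0.81 with a standard error of 0.16. In this fit 5 of the 8 genes (Fos, Fosb, Jun, Junb and Jund) had an unadjusted p under 0.05 and were lower, against 3.17% of all genes.

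Per kilobase of exon, Jund had the highest level in NLC-MI, at 111 ± 29.8 CPM per kilobase (SD, n = 5). Jun at 83.9 ± 50.0, Junb at 82.7 ± 20.8 and Fos at 81.1 ± 45.5 CPM per kilobase followed. Among these 4 the gap in means to the next gene was within the larger SD of the pair. Atf3 was lower, at 28.8 ± 14.4, followed by Fosl2 at 8.04 ± 2.32, Fosb at 4.67 ± 3.39 and Fosl1 at 1.47 ± 1.14 CPM per kilobase. The gaps in means from Fosl2 to Fosb and from Fosb to Fosl1 were also within the larger SD of the pair. Within libraries, however, Fosb was above Fosl1 in every library of both groups. Fosl2 was above Fosb in every library except NLC-MI replicate 3, with 10.2 against 10.7 CPM per kilobase. In TgGRK5-MI, Jund was at 90.3 ± 18.8, Junb at 49.3 ± 13.1, Jun at 43.0 ± 17.9 and Fos at 32.0 ± 4.11 CPM per kilobase (SD, n = 5 each). There the gap between Jund and the next gene was larger than 1 SD of either.

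The make-up of each family followed from these levels. Fos supplied between 73.4% and 93.2% of the summed FOS family level per kilobase in NLC-MI and between 71.4% and 80.5% in TgGRK5-MI. Fosl2 supplied from 3.90% to 17.2% in NLC-MI and from 12.4% to 21.4% in TgGRK5-MI. Of the JUN family level, Jund supplied from 36.5% to 43.4% in NLC-MI and from 44.4% to 60.4% in TgGRK5-MI, a narrow margin. Jund itself was not higher in TgGRK5-MI (log2 fold change -0.29), and Jun (-0.96) and Junb (-0.75) were further below 0. The ratio of the FOS sum to the JUN sum was 0.328 ± 0.084 in NLC-MI and 0.236 ± 0.015 in TgGRK5-MI (SD, n = 5 each). These are ratios of RNA levels and carry the same differences as the single genes.

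The 8 genes differed in how much they varied between mice of 1 group. The SD of log2 CPM within groups was 0.61 for Fos, 0.69 for Jun, 0.70 for Fosb and 0.74 for Atf3, higher than for 79.1% to 87.9% of all genes tested. It was 1.00 for the low-count Fosl1. For Fosl2 it was 0.39, for Junb 0.35 and for Jund 0.34, near the middle of all genes. Fos varied less in TgGRK5-MI, with an SD of 0.19, than in NLC-MI, with an SD of 0.83, and that of Atf3 was 0.72 and 0.75. Differences in spread were not tested.

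**Figure D3:**
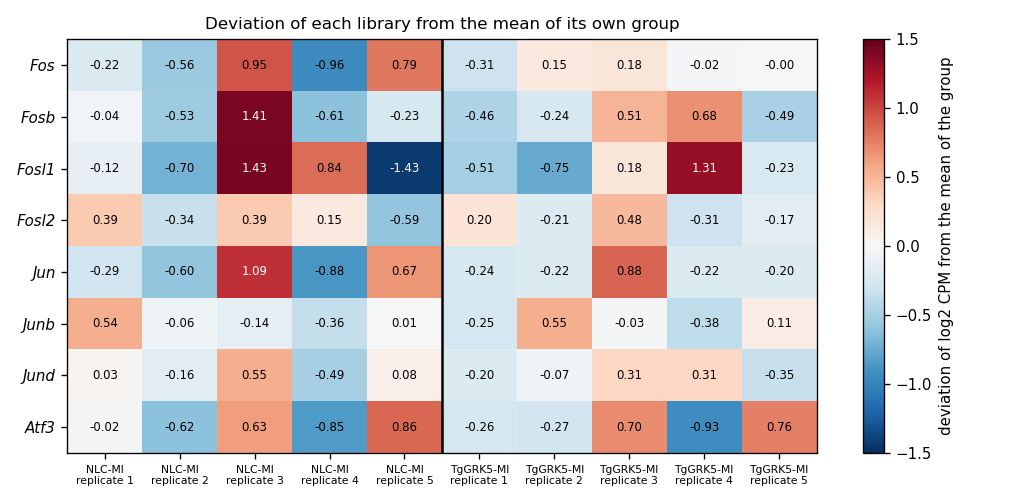
Deviation of log2 CPM from the mean of the library's own group for 8 AP-1 genes (rows) in 10 libraries (columns), with red above and blue below the group mean. NLC-MI replicate 3 is at 0.95 for Fos and 1.09 for Jun but at -0.14 for Junb, and TgGRK5-MI replicate 3 is at 0.88 for Jun.

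After removal of the group means, the libraries high for Fos were also high for Jun (Pearson's r = 0.90, permutation p = 0.00021, adjusted p = 0.0029 over 28 pairs, n = 10). Within groups, r was 0.99 in NLC-MI and 0.55 in TgGRK5-MI, so the relation was seen mainly in the controls. The permutations exchanged libraries between groups, although the groups differed in spread, so their p-values are approximate. Spearman's rho was 0.96 (permutation p = 0.0001, adjusted p = 0.0028), and r was 0.78 without the 2 libraries farthest from the median of Fos. Fosb moved with Jund (r = 0.93, permutation p = 2e-05, adjusted p = 0.00056, n = 10). Within groups, r was 0.91 in NLC-MI and 0.97 in TgGRK5-MI. Spearman's rho was 0.94 (permutation p = 0.00021, adjusted p = 0.0029), and r was 0.90 without 2 libraries. For Jun and Atf3, r was 0.78 (permutation p = 0.0082, adjusted p = 0.058) and rho was 0.70 (permutation p = 0.031, adjusted p = 0.14). For Jun and Jund, r was 0.80 (adjusted permutation p = 0.055). It was 0.74 for Fos with Jund, 0.74 for Fos with Atf3 and 0.72 for Fosb with Jun (adjusted permutation p = 0.058 each). By rho the adjusted permutation p was 0.14 for each of these pairs. Beyond Fos with Jun and Fosb with Jund, no pair had an adjusted p under 0.05 by either measure. Junb had r = 0.01 with Jun and r = 0.18 with Fos. These 10 deviations share the depth and the cell make-up of their libraries, whose part in the relation was not tested.

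Outside the 8, the genes whose within-group deviations were most like the mean deviation of the 8 were Ier3ip1 (r = 0.95), Cmc4 (0.94), Rxylt1 (0.94), Lysmd2 (0.94), Ftx (0.94), Lrif1 (0.94), Cetn2 (0.94), Fcf1 (0.93), Zfp277 (0.93) and Tmem33 (0.93), over 10 libraries. None is a classical immediate early gene, and NLC-MI replicate 3 was the highest library for 6 of these 10 and TgGRK5-MI replicate 3 for the other 4. Their log2 fold changes between groups ran from 0.04 to 0.32.

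Among 23 other immediate early genes, 22 were tested. In edgeR's quasi-likelihood test 0 had an adjusted p under 0.10, against 0.0788% of all genes. At an unadjusted p under 0.05, 2 were lower in TgGRK5-MI, against 2.08% of all genes. These were Socs3, an inhibitor of cytokine signaling, with a log2 fold change of -0.59 (standard error 0.24), and Ier2, with -0.50 (standard error 0.22). Nr4a1, a nuclear receptor induced by stress, was at 138 ± 91.3 CPM in the controls and 74.2 ± 36.8 CPM in the transgenic libraries (SD, n = 5 per group), and Egr1, a zinc finger factor, at 311 ± 165 and 183 ± 91.0 CPM. Their log2 fold changes were -0.90 (standard error 0.45) and -0.77 (standard error 0.39). The adjusted p was 1.0 for each of these 4.

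Of the 22 genes, 19 had a log2 fold change below 0, with a median of -0.28. Over all genes tested, 49.8% were below 0 and the median was 0.0013. Without NLC-MI replicates 3 and 5 the median was -0.10, 15 were below 0 and 1 had an unadjusted p under 0.05. In that fit 3.18% of all genes were lower at that threshold, and the share of all genes below 0 is not given here. The list was chosen with earlier results of these data known, so nothing is read from these counts. NLC-MI replicate 3 was the highest library for 8 of the 22, as it was for 6 of the 8 AP-1 genes. The share of all genes is not given here for either count.

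**Figure D4:**
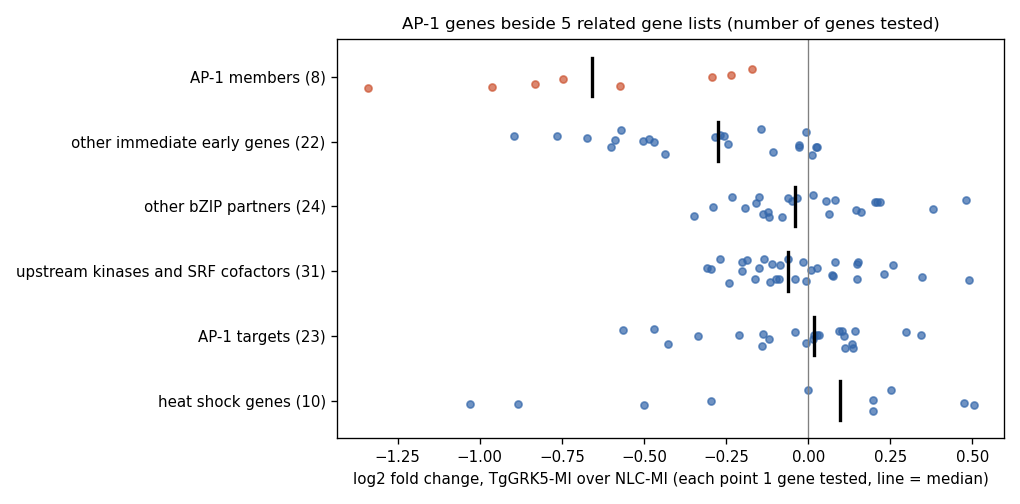
Log2 fold change, TgGRK5-MI over NLC-MI, of the 8 AP-1 genes (red) and of 5 lists of related genes (blue), with 1 point per gene tested and a black line at the median. The medians of the other lists lie between -0.28 for other immediate early genes and 0.10 for heat shock genes.

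Of 24 other bZIP genes whose proteins can pair with AP-1 members or bind related sites, 0 had an unadjusted p under 0.05 in either direction, and the median log2 fold change was -0.04. Nfe2l2, the regulator of antioxidant genes, had the smallest p, with a log2 fold change of 0.38 (standard error 0.18). Atf4 was at 0.22 (standard error 0.15), Batf2 at 0.48 (standard error 0.36) and Nfe2l1 at -0.23 (standard error 0.20), each with an adjusted p of 1.0 in edgeR's test.

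At an unadjusted p under 0.05, 1.77% of all genes were higher in TgGRK5-MI and 2.08% lower. Among the upstream kinases and the cofactors of serum response factor, 31 of 32 genes were tested, and the median log2 fold change was -0.06. Mapk3, which encodes the kinase ERK1, was higher in TgGRK5-MI at an unadjusted p under 0.05, at 71.0 ± 8.04 CPM in the controls and 90.2 ± 11.5 CPM in the transgenic libraries (SD, n = 5 per group). On the log2 scale this was 0.35 (standard error 0.14), and the adjusted p was 1.0 in edgeR's test. Map2k6 had a log2 fold change of 0.49 (standard error 0.26), Map2k1 -0.30 (standard error 0.17) and Mrtfb -0.27 (standard error 0.15), and none of these 3 passed. RNA levels of kinases do not show their activity.

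Of 25 genes known as AP-1 targets in various cells, 23 were tested, 0 had an unadjusted p under 0.05 and the median log2 fold change was 0.02. The 4 with the smallest p-values were Hbegf at -0.47 (standard error 0.36), Il11 at -0.56 (standard error 0.46), Lif at -0.43 (standard error 0.40) and Hmox1 at 0.30 (standard error 0.34). Il11 was near the floor of the depth, at 0.780 ± 0.428 CPM in NLC-MI (SD, n = 5).

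Heat shock genes respond to protein damage and to heating and handling of cells. Of the 10 tested, 1 had an unadjusted p under 0.05, Hspb1 at -0.50 on the log2 scale (standard error 0.21, adjusted p = 1.0 in edgeR's test), and the median was 0.10. Dnaja1 was at 0.50 (standard error 0.34), Hsph1 at 0.47 (standard error 0.38) and Hspa8 at 0.25 (standard error 0.24). Hspa1a, which was named after its values were seen, was at 57.7, 20.0, 535, 41.2 and 28.3 CPM in NLC-MI replicates 1 to 5. It was at 14.8, 18.6, 257, 11.7 and 31.4 CPM in TgGRK5-MI replicates 1 to 5. Replicate 3 was the highest of its group in both, and these same libraries were the highest of their groups for Jun and Fos. For Fos in TgGRK5-MI the lead was small, at 84.8 CPM against 82.8 CPM in replicate 2. With scaling by library size alone it was reversed, at 76.1 CPM in replicate 3 and 88.7 CPM in replicate 2. NLC-MI replicate 5, with the second highest Fos of all, was low for Hspa1a. The part of cell handling in the AP-1 values was not tested.

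Markers of other cell types were set beside the AP-1 genes. In NLC-MI replicates 3 and 5 the fibroblast markers summed to 5817 and 4031 CPM, both under the NLC-MI median of 7473 CPM. The macrophage markers summed to 651 and 692 CPM, under the NLC-MI median of 860 CPM. Endothelial markers were at 1485 and 826 CPM, above and below the NLC-MI median of 1110 CPM. Neutrophil markers were at 26.2 and 10.1 CPM, above and below the NLC-MI median of 19.2 CPM. For mural and lymphocyte markers replicate 3 was at the NLC-MI median and replicate 5 was the lowest control. Macrophage markers ran from 651 to 2081 CPM in the controls and from 1113 to 2316 CPM in TgGRK5-MI, endothelial markers from 826 to 1485 and from 743 to 1554 CPM, and mural markers from 799 to 1783 and from 1123 to 2012 CPM. Neutrophil markers ran from 10.1 to 26.9 and from 14.8 to 35.0 CPM, and lymphocyte markers from 0.982 to 3.57 and from 1.79 to 4.63 CPM. No marker of any list was at 0 in all libraries. Of the 10 cardiomyocyte markers, 1, Ryr2, had an unadjusted p under 0.05, and it was at -0.93 on the log2 scale (standard error 0.30), with adjusted p = 0.97 in edgeR's test. Among 7 mural markers 1 gene was lower at that threshold, Cspg4, with a log2 fold change of -0.62 (standard error 0.28), and among the tested endothelial, fibroblast, macrophage, neutrophil and lymphocyte markers 0 passed. Ryr2 and Cspg4 were named after their values were seen. The part of cell make-up in the AP-1 differences was not tested.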

How the data were processed

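Libraries of cardiomyocyte RNA (5 NLC-MI, 5 TgGRK5-MI) were made with a TruSeq kit that does not mark strand. The authors deposited whole-number counts per Ensembl gene, not normalized. The submitters' processing notes name Bowtie2, RSEM 1.2.31, DESeq2 and mm10. RSEM estimates counts where reads fit several genes, so shared reads can move between genes. Groups came from the labels, and columns from their names. Nothing states separate surgery days, so p-values measure the spread between these mice as processed.

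GENCODE M21 (GRCm38) named and placed 51596 of the 51789 identifiers. All genes were fitted in edgeR 4.0.16 (R 4.3.3) with TMM, filterByExpr and its quasi-likelihood test (not robust, not the legacy form), and p-values were adjusted over 15232 genes with the Benjamini-Hochberg method. Calls were an adjusted p under 0.10 or an unadjusted p under 0.05. The log2 CPM values used a prior count of 2. Correlations over the 10 libraries used two-sided permutation tests with 100000 resamples. The fit was tested on simulated data.

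The 8 genes, the lists and their tests were chosen with earlier results of these data known. Named genes were the 8 members, Grk5, the 4 genes of each list with the smallest p and the 10 genes most like the members. The lists rest on general knowledge of the pathway.

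Alternatives were DESeq2 1.42.0, scaling by RLE or by library size alone, limma-voom (limma 3.58.1) with sample quality weights, a robust fit, no filter, a minimum of 10 counts per library, 1 surrogate variable (sva 3.50.0), the replicate number as a block, a prior count of 0.5 and each library left out in turn. Leaving out NLC-MI replicates 3 and 5 together and library size as a covariate were added after the data were seen.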

Additional observations from a re-analysis of the deposited data

Results flagged for a closer look

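Single libraries stood far from the others of their group in 3 of the 16 sets of 5 libraries examined (8 genes in each group), by the gap to the nearest library relative to the whole range. The rule would mark about 1 in 20 sets of independent, normally distributed values. CPM values need not be normal and the sets share libraries, so this rate is only a rough guide here. Fosb was at 66.6 CPM in NLC-MI replicate 3, and between 16.3 and 24.3 CPM in the other controls. Jun was at 239 CPM in TgGRK5-MI replicate 3, and between 110 and 113 CPM in the other TgGRK5-MI libraries. Fosl1 was at 5.82 CPM in TgGRK5-MI replicate 4, and between 1.31 and 2.61 CPM in the other TgGRK5-MI libraries, in the second smallest library and with the shared exon bases named above.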

How the results depend on the processing

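The median log2 fold change of the 8 genes stayed below 0 under all 21 alternatives. It ran from -0.79 to -0.35 over the 10 fits that left out a library each, and was -0.23 without NLC-MI replicates 3 and 5. Fos, Fosb, Fosl2, Jun, Junb and Jund were below 0 in each of the 21. Atf3 was below 0 in 20, with 0.02 without NLC-MI replicates 3 and 5, and Fosl1 in 18. Fos and Junb had an unadjusted p under 0.05 in every fit. These fits reuse the same libraries, and the genes were chosen with the comparison known, so this is no independent support. The log2 fold change of Fos ran from -1.53 to -1.07 with a library left out, that of Jun from -1.27 to -0.61 (without NLC-MI replicate 3) and that of Junb from -0.91 to -0.60. Without NLC-MI replicates 3 and 5 together, Fos was at -0.61, Jun at -0.21 and Junb at -0.81.

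The number of the 8 with an adjusted p under 0.10 was 0 in edgeR's fit and 1 with DESeq2 (Fos). It was 0 under each of the other alternatives. The number with an unadjusted p under 0.05 was 3, and 5 with 1 surrogate variable or with log2 library size as a covariate. It ran from 2 to 4 with a library left out (0 at the adjusted threshold in each), and Jun was lost without NLC-MI replicates 3 or 5 and without TgGRK5-MI replicates 1, 2, 4 or 5. With limma-voom and sample quality weights Jun was lost too and Fosb passed, with log2 fold changes of -0.57 for Jun, -0.87 for Fos and -0.11 for Atf3. Over the 5 lists of related genes the number was 4, and 7 with limma-voom, 10 with 1 surrogate variable, 7 without NLC-MI replicates 3 and 5 and 10 with library size as a covariate. With a library left out it ran from 2 to 9, and the number at the adjusted threshold was 0 in each. The median SD within groups was 0.65, from 0.48 to 0.69 with a library left out and 0.42 without NLC-MI replicates 3 and 5. The share of all genes is not given here for the surrogate variable, limma-voom or the fits with a library left out. Nothing is therefore read from the counts in these fits. The cause of these shifts was not tested.

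Libraries with the same replicate number correlated at 0.0717, 0.662, 0.381, -0.341 and 0.0848 over genes (mean 0.172, against -0.0274 for different numbers), and 2 of 10 correlated best with their own number. The labels do not say whether the numbers pair the mice, and these correlations cannot decide it, because unpaired libraries can also be alike. With the replicate number as a block, 5 of the 8 genes and 9 list genes had an unadjusted p under 0.05, and Fos was at -1.16. The share of all genes in that fit is not given here, so nothing is read from these counts. Depth limits Fosl1 most, with 12 counts in its lowest library.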
